A study of Mus musculus with 23 samples.

Results

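Ovary RNA of NZO/HlLtJ females was compared with that of C57BL/6J females on the control diet with 10% fat. Members were chosen by the strain and diet in the sample titles, which gave 7 of the 23 libraries of the series, 4 of NZO/HlLtJ and 3 of C57BL/6J. NZO/HlLtJ, the New Zealand Obese mouse, is an inbred polygenic model of obesity and type 2 diabetes, and C57BL/6J is the inbred strain most used as a reference. All mice were females without an engineered allele (genotype WT, treatment none). They received 10% fat + fiber from 6 weeks of age, and the ovary was taken at 15 weeks. The same strain comparison on 44% fat + fiber, a diet also high in sugar, had 4 libraries of each strain, and values of the 4 libraries of CAST/EiJ, a strain derived from wild mice, on 10% fat are given beside some genes. No label gives body weight, blood glucose or stage of the estrous cycle, and none ties a library to an animal of its own. The p-values therefore rest on how libraries of 1 group vary, and that variation may be technical. The build named by the submitters, GRCm38, is a C57BL/6J genome. A gene with less RNA in NZO/HlLtJ and a gene whose NZO/HlLtJ reads match the reference less well therefore cannot be told apart from these counts.

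The ovary is built of follicles, each an oocyte enclosed by granulosa cells and, outside them, by theca cells that make androgen. After ovulation the follicle turns into a corpus luteum of progesterone-making luteal cells. Vessels with smooth muscle, fibroblasts, a surface epithelium and many macrophages, which clear dying follicles and regressing corpora lutea, make up the rest. In a bulk sample, fewer cells of a type and less RNA per cell cannot be told apart.

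Library totals of the 7 libraries lay between 32.8 and 45.4 M estimated counts. C57BL/6J replicate 2 stood apart from the other C57BL/6J libraries. Its log2 levels correlated at 0.976 with replicate 1 and 0.980 with replicate 3, while replicates 1 and 3 correlated at 0.991 and NZO/HlLtJ pairs at 0.984 to 0.994. Granulosa cell markers were high in it and luteal cell markers low. Their list scores, the median log2 difference of the markers from the mean of the 7 libraries, were 0.654 and -0.782 in C57BL/6J replicate 2, against -0.600 and 1.36 in replicate 1 and -0.504 and 0.344 in replicate 3. All 16 granulosa cell and all 22 oocyte markers reached 0.1 CPM (counts per 1 M counts of the library) in at least 1 library of each group, so the defining markers of the labelled tissue were present.

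NZO/HlLtJ and C57BL/6J ovaries differed in many genes, and slightly more of them were lower than higher in NZO/HlLtJ. Of 20189 genes tested, 2019 (10.0%) passed an adjusted p of 0.05 in edgeR's quasi-likelihood test. They were 900 higher in NZO/HlLtJ (4.46%) and 1119 lower (5.54%). At least 2-fold differences with that p were found for 500 higher genes (2.48%) and 516 lower genes (2.56%). Levels did not overlap between the 4 and the 3 libraries for 1996 genes higher in NZO/HlLtJ (9.89%) and 1897 lower (9.40%). The median log2 fold change over all genes tested was 0.01. Levels in CPM are compared between strains and not between genes. The count of 2019 fell to 1106 without C57BL/6J replicate 1. It was 2994 without C57BL/6J replicate 2, the library that stood apart, and 1700 of the 2019 were among those.

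**Figure D1:**
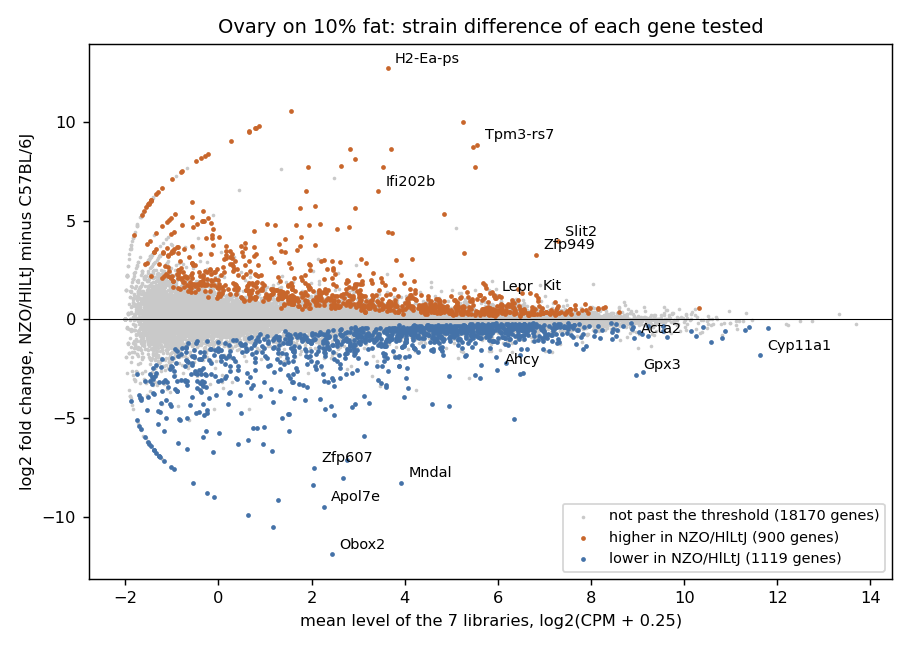
Log2 fold change (NZO/HlLtJ minus C57BL/6J on 10% fat, vertical axis) against mean level in log2(CPM + 0.25) for 20189 genes, 1 point a gene. Orange marks the 900 genes higher and blue the 1119 genes lower in NZO/HlLtJ at an edgeR adjusted p under 0.05; fitted values of genes at 0 in 1 strain, such as Obox2 and H2-Ea-ps, depend on a prior count.

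The genes that fell most were nearly silent in NZO/HlLtJ. Obox2, an oocyte-specific homeobox gene (GRCm38, chr7:15388721-15398545, + strand), was at 4.66, 18.3 and 13.4 CPM in C57BL/6J replicates 1 to 3 and at 0 in all 4 NZO/HlLtJ libraries, which is at least 689-fold lower with a floor of 3 counts over the group (adjusted p 4.5e-08). The neighbouring family members Obox1 and Obox5 were at 6.76 ± 3.66 and 6.83 ± 2.58 CPM in C57BL/6J (SD, n = 3) and at 9.9 ± 1.69 and 9.94 ± 2.82 in NZO/HlLtJ (n = 4). Summed, Obox1, Obox2 and Obox5 gave 25.7 ± 13.1 and 19.8 ± 4.43 CPM, a difference within the spread. These near-identical genes may share reads. Apol7e, of the apolipoprotein L family, was at 22.1, 3.85 and 5.93 CPM in C57BL/6J and had 2 counts in all of NZO/HlLtJ, a ratio of 937 with a 95% counting interval of 259 to 7745. Zfp607, a zinc-finger gene, was 181-fold lower, with 7.62, 8.81 and 10.8 CPM in C57BL/6J and 0.023, 0.0916, 0.0217 and 0.0524 in NZO/HlLtJ (adjusted p 8.4e-12). For each of these 3 genes every NZO/HlLtJ library was far below the lowest C57BL/6J library.

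Genes of the nervous system, meiosis and immune cells were also among the 12 that fell most. Ctnna2, the neuronal alpha-catenin, was 28.1-fold lower (11.9 ± 2.97 against 0.42 ± 0.0869 CPM, adjusted p 2.97e-07). Rec8, the meiotic cohesin subunit, was 20.5-fold lower (11.1 ± 0.404 against 0.54 ± 0.299 CPM, adjusted p 2.64e-06). Fggy, a carbohydrate kinase, was 18.6-fold lower, at 21, 17.3 and 21.6 CPM in C57BL/6J and 1.13, 0.938, 1.17 and 1.05 in NZO/HlLtJ (adjusted p 1.12e-13), and replicates of each strain were close together. Cd5l, a protein secreted by macrophages, fell 27.8-fold and Cd244, a receptor of natural killer cells, 23.3-fold (adjusted p 0.000269 and 4.23e-05). Cd244 was at 13.1, 2.67 and 15 CPM in C57BL/6J, with replicate 2 far below the others, and at 0.438 ± 0.159 in NZO/HlLtJ. Its log2 fold change was -4.54 on 10% fat and -2.15 on 44% fat. The annotated span of Cd244 holds Ly9, so reads of these 2 genes may be mixed. Paqr9, of the progestin and adipoQ receptor family, rested partly on C57BL/6J replicate 2, with 6.23, 42.7 and 8.9 CPM in C57BL/6J, and its log2 fold change of -5.88 became -4.52 without that library. Eps8l1 and the nerve growth factor signalling gene Islr2 fell 19.1-fold and 17-fold (adjusted p 0.000806 and 0.000419), and the log2 fold change of Islr2 went from -4.09 to -3.28 without C57BL/6J replicate 1.

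Several of the genes that rose most have a near-identical partner with which they may share reads. Tpm3-rs7, a tropomyosin 3 related sequence, was at 0.174, 0.221 and 0.125 CPM in C57BL/6J and 84.2, 75.1, 92.3 and 76.7 in NZO/HlLtJ, 457-fold higher (adjusted p 3.99e-19). Tpm3 itself was at 292 ± 27.6 and 178 ± 17.9 CPM, and the sum of both was 292 ± 27.5 in C57BL/6J and 260 ± 25.5 in NZO/HlLtJ. Hba-a1, an alpha-globin gene, was 427-fold higher (adjusted p 1.11e-06, log2 fold change 8.74, 8.13 without C57BL/6J replicate 1 and 10.34 without replicate 2), while Hba-a1 and Hba-a2 together were at 162 ± 93.4 and 203 ± 103 CPM. Hist2h2aa2, a histone H2A gene, had 3 counts in C57BL/6J, a ratio of 233 with a 95% counting interval of 79.5 to 1131, and together with Hist2h2aa1 it was at 14.6 ± 5.47 and 8.58 ± 1.18 CPM. For each of these pairs the summed level differed far less than the single gene, so the single values are uncertain.

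Other genes that rose most had no partner of that kind in these sums. Slit2, the ligand of Robo receptors (GRCm38, chr5:47983138-48307733, + strand), was at 23.7, 6.67 and 19.8 CPM in C57BL/6J and 406, 174, 221 and 238 in NZO/HlLtJ, 15.6-fold higher (adjusted p 7.13e-05). It was both among the 12 with the largest rise and among the abundant genes. Mrap2, which modulates melanocortin receptors, rose 24.1-fold (0.38 ± 0.394 to 9.43 ± 2.16 CPM, adjusted p 2.22e-06). Its log2 fold change of 4.59 was 5.92 without C57BL/6J replicate 2. Cfap54, a protein of motile cilia, rose 21.2-fold (0.974 ± 0.187 to 20.7 ± 2.19 CPM, adjusted p 0.000101).

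A further 3 genes of this group, all for secreted or membrane signals, varied widely within NZO/HlLtJ. Tnfsf11, the cytokine RANKL, was at 0.174, 0.859 and 0.281 CPM in C57BL/6J and 22.7, 6.18, 1.24 and 15.9 in NZO/HlLtJ (adjusted p 0.000532). The adjusted p was 0.0627 when only the 7 libraries were fitted. Sstr1, a somatostatin receptor, was at 0.149, 0.245 and 0.375 and 6.59, 26.4, 13.7 and 4.16 CPM (adjusted p 0.000233, and 0.0909 in limma with library quality weights). Ccl11, the eosinophil attractant eotaxin, was at 0.149, 0.0981 and 0.0624 and 9.6, 1.05, 1.28 and 9.58 CPM (adjusted p 0.000316). NZO/HlLtJ replicates 1 and 4 were high in Ccl11, and replicates 2 and 3 were nearer to C57BL/6J but still above it. Of 8 tested markers of granulocytes and mast cells 1 rose, beside 4.46% of all genes, and it was Kit, which is also on the oocyte list. The markers summed to 42.0 to 108 CPM in C57BL/6J and 112 to 201 in NZO/HlLtJ. Most of this was Kit, at 37.9 to 107 and 111 to 199 CPM. The list's median log2 fold change was 0.03, and the part of these cells in the Ccl11 difference was not tested.

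Among genes with a mean of at least 50 CPM over the 7 libraries, Gpx3, Erdr1 and Ahcy fell most. Gpx3, the extracellular glutathione peroxidase (GRCm38, chr11:54902453-54910377, + strand), was at 1386, 543 and 1007 CPM in C57BL/6J and 138, 188, 102 and 139 in NZO/HlLtJ, 6.9-fold lower (log2 fold change -2.79, SE 0.296, adjusted p 2.22e-06). Ahcy, which breaks down S-adenosylhomocysteine, was at 109, 130.4 and 120.0 and 18.1, 20.1, 24.7 and 19.9 CPM, 5.78-fold lower (adjusted p 4.46e-13). Replicates of each strain lay close together for Ahcy, and the strains were far apart. Cyp11a1, the side-chain cleavage enzyme that starts steroid synthesis (GRCm38, chr9:58006411-58027023, + strand), was at 6278, 4158 and 5666 CPM in C57BL/6J and 1239, 1561, 2348 and 944 in NZO/HlLtJ, 3.52-fold lower (log2 fold change -1.82, SE 0.286, adjusted p 0.00024). It passed in all 14 settings tried. C57BL/6J replicate 2, in which luteal markers were low, had the lowest Cyp11a1 of the C57BL/6J libraries, and the part of luteal content in this difference was not tested. Slc18a2, the vesicular monoamine transporter, fell 3.43-fold, and the receptor Gprc5b 2.8-fold (adjusted p 0.000865 and 8.37e-05). Erdr1, of the pseudoautosomal region and listed by the authors' annotation on the Y chromosome, was 6.71-fold lower in these females (adjusted p 1.42e-05).

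Among abundant genes that rose, Slit2, given above, was followed by Zfp949, a zinc-finger gene. Zfp949 was at 19.5, 18.3 and 19.2 CPM in C57BL/6J and 161, 162, 249.7 and 162 in NZO/HlLtJ, 9.67-fold higher (adjusted p 6.3e-12), and replicate 3 was above the other NZO/HlLtJ libraries. Ptprv, a receptor-type tyrosine phosphatase gene, and Sorl1, a sorting receptor, rose 3.05-fold and 2.9-fold (adjusted p 3.82e-06 and 0.000522). Acvrl1, the receptor ALK1 of the TGF-beta family in endothelium, rose 2.5-fold (30.4 ± 2.12 to 76 ± 10.1 CPM, adjusted p 3.25e-06). The erythroid and muscle beta-spectrin gene Sptb rose 2.58-fold and the scaffold gene Iqgap2 2.49-fold (adjusted p 2.76e-05 and 0.000492). Bpifb4, a gene of the lipid-binding BPI family, was at 7.86, 45.7 and 8.18 and 103, 67.9, 57.7 and 68.5 CPM with an adjusted p of 0.0366, which was 0.195 without C57BL/6J replicate 1, 0.154 without C57BL/6J replicate 3 and 0.0945, 0.0576 and 0.0598 without NZO/HlLtJ replicates 1, 2 and 4.

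**Figure D2:**
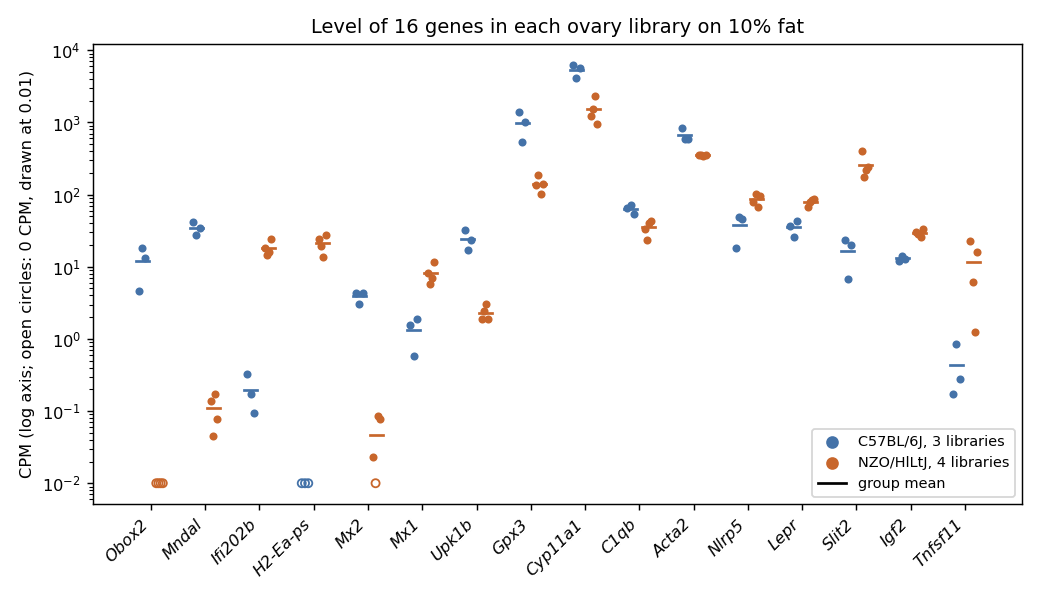
CPM of 16 genes (log axis) in each of the 3 C57BL/6J (blue) and 4 NZO/HlLtJ (orange) libraries on 10% fat, with group means as lines and 0 CPM drawn as open circles at 0.01. The strains do not overlap for any of the 16 genes; Obox2 is at 0 in NZO/HlLtJ and H2-Ea-ps at 0 in C57BL/6J.

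The Ifi200 family is a cluster of interferon-inducible genes on chromosome 1 whose products bind DNA or form complexes with DNA sensors. Of 15 genes in the list 11 were tested, and 7 fell and 1 rose in NZO/HlLtJ, beside 5.54% and 4.46% of all genes. The list's median log2 fold change was -1.37. Ifi202b (GRCm38, chr1:173962568-173982744, - strand), known for its strain-dependent expression and proposed as an obesity gene, was the one that rose, from 0.322, 0.172 and 0.0937 CPM in C57BL/6J to 18.4, 14.4, 16.3 and 24.2 in NZO/HlLtJ, 89.9-fold (adjusted p 1.18e-06). Its neighbours moved the other way. Mndal was at 42.3, 27.7 and 34 and 0.138, 0.0458, 0.174 and 0.0786 CPM, 305-fold lower (adjusted p 1.12e-13), and Pydc4, a gene with a pyrin domain, was 67.3-fold lower (2.97 ± 0.659 against 0.0413 ± 0.0479 CPM, adjusted p 0.000234). The log2 fold change of Pydc4 was -6.07, and -6.75 without NZO/HlLtJ replicate 3. Ifi203 and Ifi204 fell 2.59-fold and 3.76-fold (66.2 ± 15.9 against 25.6 ± 3.97 and 24.6 ± 11.6 against 6.56 ± 1.38 CPM, adjusted p 1.68e-05 and 0.000855). Mnda, Pyhin1 and AI607873 had log2 fold changes of -1.63, -2.32 and -1.31 (adjusted p 0.0114, 0.00455 and 0.00157). Aim2, the DNA sensor of the inflammasome, was at 1.83 ± 0.317 and 2.26 ± 0.024 CPM and did not pass. The annotated span of Mndal holds Mnda and overlaps most of Ifi203 on the same strand, so reads of these 3 may be mixed. In CAST/EiJ on 10% fat Ifi202b was at 0.439 CPM and Mndal at 23.1.

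The bases upstream of these genes are shown because neighbours in 1 interferon-inducible cluster moved in opposite directions. The motif searched on both strands was the core of the interferon-stimulated response element, GAAANNGAAA. It was found within 250 bases upstream of 2.98% of all RefSeq promoters (978 of 32851, GRCm38.p6), and copies that overlap were joined. Of 8 family genes 6 were found with a RefSeq start within the 1000 bases allowed from the start in the authors' annotation. Mndal, whose start differs from that annotation, and Ifi204, absent from the promoters used, were not searched. For the genes found, the starts are 100 bases apart for Ifi202b, 58 for Pyhin1 and 0 to 2 for the others. Positions count from the RefSeq start. In 3 genes the window held a match, in capitals, which starts 37 bases before the start of Mnda, 41 before that of AI607873 and 73 before that of Pydc4. All 3 fell in NZO/HlLtJ. Ifi202b, which rose, and Ifi203 and Pyhin1, which fell, had no match in this window. The sequences are of the reference, a C57BL/6J genome, and the NZO/HlLtJ sequence was not analysed here.
Ifi202b (chr1:173982845-173983094, - strand): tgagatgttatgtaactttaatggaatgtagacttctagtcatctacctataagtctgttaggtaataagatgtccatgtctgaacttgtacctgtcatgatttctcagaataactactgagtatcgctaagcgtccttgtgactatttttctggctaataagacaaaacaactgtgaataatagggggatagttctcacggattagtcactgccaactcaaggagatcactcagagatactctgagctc
Mnda (chr1:173913047-173913296, - strand): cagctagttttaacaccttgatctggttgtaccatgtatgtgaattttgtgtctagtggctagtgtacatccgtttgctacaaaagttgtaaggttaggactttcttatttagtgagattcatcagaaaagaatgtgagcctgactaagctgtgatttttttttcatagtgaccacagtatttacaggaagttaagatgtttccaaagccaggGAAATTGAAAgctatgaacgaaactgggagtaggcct
AI607873 (chr1:173741810-173742059, - strand): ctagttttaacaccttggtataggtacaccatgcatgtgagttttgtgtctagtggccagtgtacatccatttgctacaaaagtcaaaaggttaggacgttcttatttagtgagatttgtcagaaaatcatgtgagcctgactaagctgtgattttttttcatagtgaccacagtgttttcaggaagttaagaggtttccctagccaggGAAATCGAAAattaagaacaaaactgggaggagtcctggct
Pydc4 (chr1:173599273-173599522, - strand): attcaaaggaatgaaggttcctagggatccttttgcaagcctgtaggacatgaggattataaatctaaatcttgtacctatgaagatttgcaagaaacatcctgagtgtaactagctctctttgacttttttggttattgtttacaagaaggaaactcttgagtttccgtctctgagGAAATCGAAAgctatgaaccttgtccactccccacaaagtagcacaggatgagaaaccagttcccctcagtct

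Interferon-inducible GTPases attack the vacuoles of intracellular pathogens. Of 22 tested 1 rose, near the share of all genes (4.46%), and 5 fell, beside 5.54% of all genes. The median log2 fold change was -0.13. Gbp2b, a guanylate-binding protein gene known to be expressed in some strains only, was at 0.273, 0.147 and 0.343 CPM in C57BL/6J and 6.64, 8.49, 4.95 and 9.01 in NZO/HlLtJ, 28.6-fold higher (adjusted p 4.1e-08). Its upstream sequence is shown for comparison with those above, with a match on the opposite strand that starts 137 bases before the gene's start.
Gbp2b (chr3:142594597-142594846, + strand): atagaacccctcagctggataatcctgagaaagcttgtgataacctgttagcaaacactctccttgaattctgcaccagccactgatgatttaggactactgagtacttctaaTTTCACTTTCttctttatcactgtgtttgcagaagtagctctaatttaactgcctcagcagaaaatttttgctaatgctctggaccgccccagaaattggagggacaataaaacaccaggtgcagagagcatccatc
Gm4951, an immunity-related GTPase gene, fell 101-fold and its neighbour F830016B08Rik 6.05-fold (adjusted p 3.38e-07 and 0.0166; log2 fold change of Gm4951 -6.66, and -7.46 without NZO/HlLtJ replicate 4), and the giant GTPase Gvin1 fell 5.16-fold (26.6 ± 6.4 against 5.15 ± 0.82 CPM, adjusted p 4.84e-06). Tgtp2 and Gbp3 fell by 2.54 and 1.95 times in the fit, and Tgtp2 has the near-identical copy Tgtp1, at a log2 fold change of 0.74 (adjusted p 0.138). Without C57BL/6J replicate 1 the 5 lower members were 2, with adjusted p of 0.0589 for Tgtp2 and 0.0696 for F830016B08Rik. They were 3 without C57BL/6J replicate 3 or NZO/HlLtJ replicate 2 (0.0811 and 0.0576 for F830016B08Rik).

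Mx1 and Mx2, antiviral GTPases that are both mutated in many laboratory strains, were opposite in the 2 strains. Mx1 was at 1.54, 0.589 and 1.9 CPM in C57BL/6J and 8.2, 5.79, 6.99 and 11.5 in NZO/HlLtJ, 6.07-fold higher (adjusted p 0.029). Mx2 was at 4.32, 3.09 and 4.28 and 0.023, 0, 0.0868 and 0.0786 CPM, 78.1-fold lower (adjusted p 1.04e-06). Neither gene overlapped between the strains. The adjusted p of Mx1 was 0.0522 to 0.0989 without any 1 of the 3 C57BL/6J libraries or NZO/HlLtJ replicates 1 or 4, and on 44% fat the adjusted p was 0.00511 with the same direction.

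Inflammasomes are protein complexes that activate caspase-1 and the cytokines IL-1beta and IL-18. Of 16 tested members 5 fell and 0 rose, beside 5.54% and 4.46% of all genes. The list's median log2 fold change was -0.73. Pycard, the adaptor ASC, was at 12.5, 8.76 and 11.6 CPM in C57BL/6J and 2.3, 2.15, 4.06 and 2.83 in NZO/HlLtJ, 3.86-fold lower (adjusted p 3.76e-07). The sensor Nlrp1a was at 0.645, 0.27 and 0.437 CPM in C57BL/6J and had 0 counts in NZO/HlLtJ, at least 25.8-fold lower. Naip1, a sensor of bacterial secretion proteins, was at 12, 1.15 and 14.5 and 0.368, 0.481, 0.651 and 0.786 CPM, 16.1-fold lower (adjusted p 0.000168), and C57BL/6J replicate 2 was far below the other C57BL/6J libraries but above every NZO/HlLtJ library. Il18 and Nlrp1b fell less, with log2 fold changes of -0.88 and -0.91 (adjusted p 0.0155 and 0.0496), and both missed the threshold without C57BL/6J replicate 1 (0.143 and 0.181) and replicate 3 (0.0635 and 0.168), and Nlrp1b also without NZO/HlLtJ replicates 1, 2 and 3 (0.127, 0.111 and 0.0817). The 5 members were 3 without C57BL/6J replicate 1 or 3.

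Some classical and Qa class I genes of the major histocompatibility complex, which present peptides to CD8 T cells and natural killer cells, fell in NZO/HlLtJ. Of 21 tested 6 fell and 0 rose, beside 5.54% and 4.46% of all genes, with a median log2 fold change of -0.33. H2-K1 was at 244, 212 and 211 CPM in C57BL/6J and 75.3, 64.8, 72 and 81.5 in NZO/HlLtJ, 3.03-fold lower (adjusted p 7.04e-05). H2-Q7, H2-Q6 and H2-Q4 fell 8.26-fold, 4.26-fold and 2.54-fold (adjusted p 5.34e-07, 0.00212 and 0.000475). H2-D1 fell 1.92-fold (adjusted p 0.0176), with 0.0871 without C57BL/6J replicate 1 and 0.0538 without NZO/HlLtJ replicate 2. The genes of peptide loading, the shared chain B2m, the transporter Tap1 and its binding protein Tapbp, had log2 fold changes of -0.29, -0.39 and -0.33 and did not pass (adjusted p 0.299, 0.18 and 0.0767). Class I genes are near-identical copies of one another and differ between haplotypes, so their split of reads is uncertain.

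Of 11 class II genes, which present peptides to CD4 T cells, 1 rose and 0 fell, beside 4.46% and 5.54% of all genes. H2-Ea-ps, the E alpha chain that carries a deletion in C57BL/6J, was at 0 in all 3 C57BL/6J libraries and at 24.5, 19.2, 13.5 and 28 CPM in NZO/HlLtJ, at least 791-fold higher at a floor of 3 counts over the group (adjusted p 5.34e-07). H2-Ab1, the A beta chain, was at 47.5 ± 9.03 and 27.1 ± 8.22 CPM (log2 fold change -0.81, adjusted p 0.153). The regulator of the class, Ciita, was at 5.61 ± 0.423 and 4.24 ± 0.759 CPM (adjusted p 0.447).

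**Figure D3:**
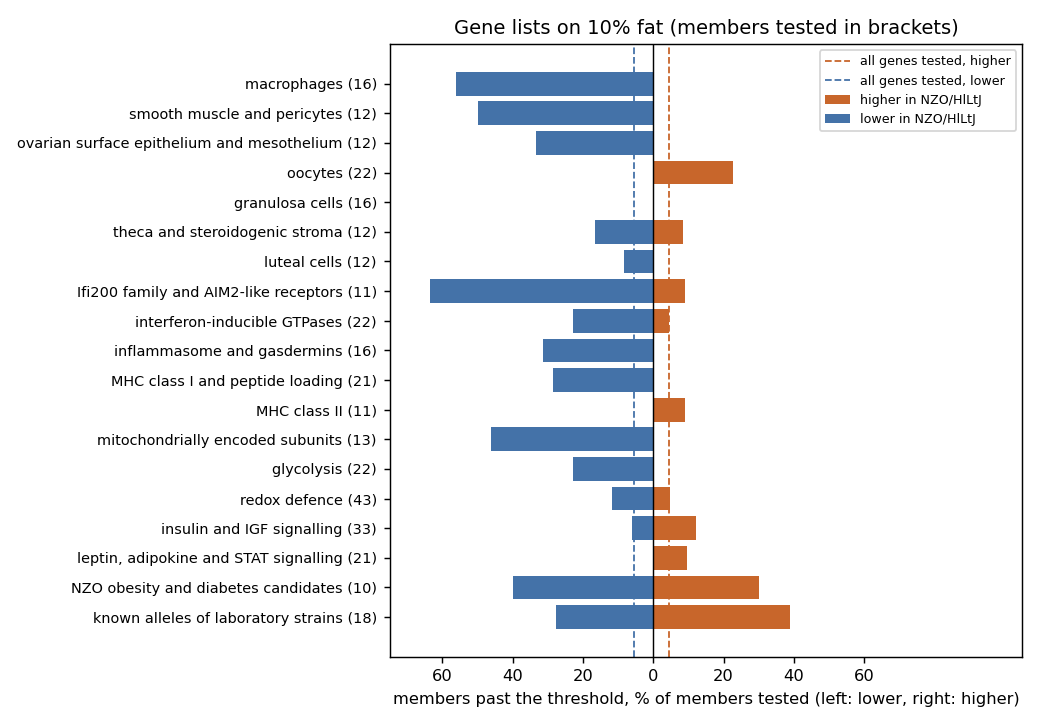
Share of tested members past the threshold (horizontal axis, percent; right, orange: higher in NZO/HlLtJ; left, blue: lower) for 19 lists, with the number tested in brackets. Dashed lines mark 4.46% higher and 5.54% lower over all genes tested; macrophage, smooth muscle, Ifi200 and mitochondrially encoded genes extend to the left.

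Macrophage markers were lower in NZO/HlLtJ as far as they passed. Of 16 tested 9 fell and 0 rose, beside 5.54% and 4.46% of all genes. The list's median log2 fold change was -0.83, and its summed level was 910 to 1159 CPM in C57BL/6J and 396 to 649 in NZO/HlLtJ. Adgre1, the F4/80 antigen, was at 32.1, 72.7 and 25.2 CPM in C57BL/6J and 15.8, 12.9, 15 and 17.5 in NZO/HlLtJ (2.83-fold lower, adjusted p 0.000608). C57BL/6J replicate 2 was high, and without it the log2 fold change was -0.91. The complement genes C1qb and C1qc, which macrophages make, were 1.82 and 1.89 times lower (adjusted p 0.00901 and 0.00486), with C1qb at 65.3, 72.7 and 54.6 CPM in C57BL/6J and 33.6, 23.9, 40.3 and 43.3 in NZO/HlLtJ. Lysozyme Lyz2 was at 359.9, 389.9 and 336 and 95.9, 111, 209 and 163 CPM (adjusted p 0.0208), and no library overlapped. The lysosomal and lipid-handling genes Cd68, Trem2 and Gpnmb fell 2.15-fold, 2.37-fold and 3.78-fold (adjusted p 0.0102, 0.0155 and 0.0313). Among the 7 macrophage markers that did not pass, the growth factor receptor Csf1r was at 60 ± 13.7 and 52.6 ± 11.1 CPM, the mannose receptor Mrc1 at 45.8 ± 8.11 and 49.5 ± 6.99, and Mertk, a receptor for dying cells, at 45.7 ± 9.17 and 44.2 ± 2.63 (adjusted p 0.616, 0.76 and 0.899).

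The count of 9 macrophage markers rested on several libraries. It was 3 without C57BL/6J replicate 1, 7 without C57BL/6J replicate 2, 5 and 4 without NZO/HlLtJ replicates 1 and 2, and 8 or 9 without the others. Without C57BL/6J replicate 1 the adjusted p was 0.0545 for Cd68, 0.0953 for Trem2 and 0.0968 for Gpnmb. Trem2 was also lost without NZO/HlLtJ replicates 1 and 2 (0.0541 and 0.0508). Gpnmb was lost without every library but NZO/HlLtJ replicate 3 (0.0511 to 0.0968).

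Some smooth muscle markers fell too. Of 12 smooth muscle and pericyte genes 6 fell and 0 rose, beside 5.54% and 4.46% of all genes. The list's median log2 fold change was -0.85, and its summed level was 2063 to 3292 CPM in C57BL/6J and 1430.0 to 1491 in NZO/HlLtJ. Acta2, smooth muscle actin, was at 831, 586 and 586 CPM in C57BL/6J and 349, 351, 342 and 354 in NZO/HlLtJ (1.91-fold lower, adjusted p 0.00486). The contractile genes Tagln and Myh11 fell 2.38-fold and 1.96-fold (adjusted p 0.0148 and 0.0165). The highest C57BL/6J library for each of these 3 was replicate 1, and without it 0 of the 12 passed, with adjusted p of 0.0523, 0.128 and 0.153. Without C57BL/6J replicate 2 the count was 8, and it was 3 without C57BL/6J replicate 3 or NZO/HlLtJ replicates 1, 2 or 4.

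Among 12 markers of the ovarian surface epithelium and mesothelium 4 fell and 0 rose, beside 5.54% and 4.46% of all genes. The list's median log2 fold change was -0.56. Upk1b, a uroplakin (GRCm38, chr16:38773184-38800203, - strand), was at 32.7, 17.1 and 23.5 CPM in C57BL/6J and 1.91, 2.43, 3.02 and 1.91 in NZO/HlLtJ, 10.5-fold lower (adjusted p 4.34e-07). Mesothelin, Msln, was at 27.1, 16.2 and 20.6 and 7.63, 7.37, 7.25 and 6.18 CPM, 2.99-fold lower (adjusted p 0.000175). The neuronal membrane glycoprotein Gpm6a and the keratin Krt7 fell 2.26-fold and 2.51-fold (adjusted p 0.000725 and 0.00762), and Krt7 had an adjusted p of 0.0639 without C57BL/6J replicate 1. Upk3b, another uroplakin of this layer, was at 47.1 ± 15.1 and 32.5 ± 8.7 CPM and did not pass (adjusted p 0.213).

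Oocyte markers were higher in NZO/HlLtJ where they passed. Of 22 tested 5 rose and 0 fell, beside 4.46% and 5.54% of all genes. All 22 had a positive log2 fold change, as had 10410 of 20189 genes tested, and the list's median was 0.77. Nlrp5, a maternal gene of the oocyte's subcortical complex, was at 18.1, 48.6 and 46.1 CPM in C57BL/6J and 78.9, 104, 67 and 94.5 in NZO/HlLtJ (2.29-fold, adjusted p 0.00651). Khdc3, of the same complex, rose 2.19-fold, Kit, the oocyte's receptor for granulosa cell Kit ligand, 2.34-fold, and the transcription factors Nobox and Lhx8 2-fold and 1.91-fold (adjusted p 0.00692, 0.0124, 0.0304 and 0.0312). The zona pellucida gene Zp3 was at 26.6 ± 13.3 and 39.7 ± 8.07 CPM and the growth factor gene Gdf9 at 52.6 ± 25.7 and 81.4 ± 18 (adjusted p 0.207 and 0.158). C57BL/6J replicate 1 was low in this list, with a score of -1.37 against 0.139 and -0.212 in replicates 2 and 3 and -0.004 to 0.641 in NZO/HlLtJ. Without that library 1 marker passed, with adjusted p of 0.0541 for Khdc3, 0.0963 for Kit, 0.143 for Nobox and 0.212 for Lhx8. Kit, Nobox and Lhx8 were also lost without C57BL/6J replicate 3 (0.0792, 0.0649 and 0.114). Without C57BL/6J replicate 2 the count was 14, without NZO/HlLtJ replicate 3 it was 10, and without NZO/HlLtJ replicate 2 or 4 it was 3.

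The scores of the macrophage, smooth muscle and surface lists did not overlap between the strains, and those of the luteal, granulosa cell and oocyte lists did. The part of these lists in the calls of other genes was not tested.

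**Figure D4:**
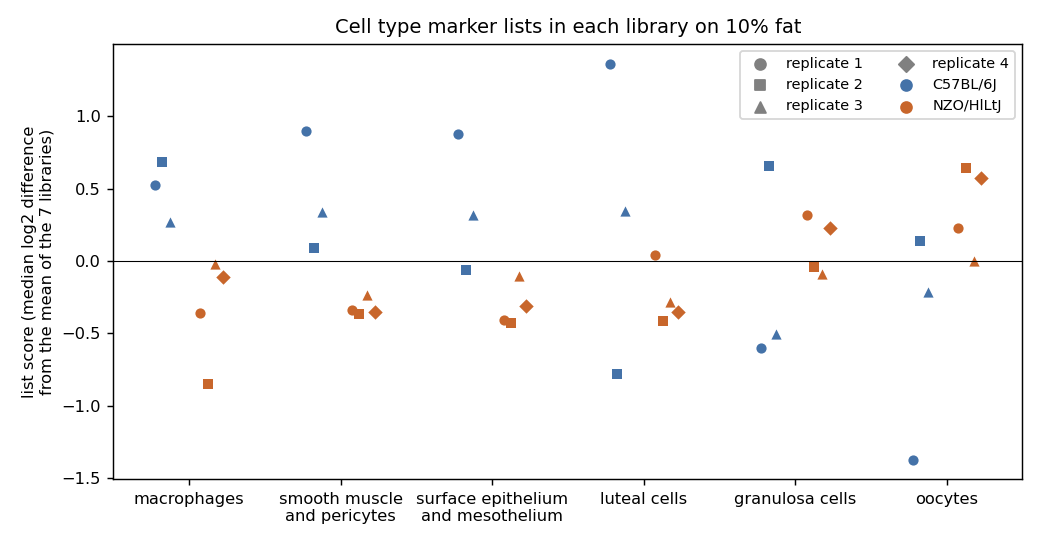
List scores (median log2 difference of the markers from the mean of the 7 libraries, vertical axis) of 6 cell type lists in each library; shape gives the replicate and colour the strain. C57BL/6J replicate 1 is high in luteal, smooth muscle and surface markers and low in oocyte markers, replicate 2 is low in luteal and high in granulosa markers, and the NZO/HlLtJ libraries lie closer together than the C57BL/6J libraries for all lists except macrophages.

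Among markers of the steroid-making cells, some theca genes passed and no granulosa cell marker did. Of 16 granulosa cell markers 0 passed, beside 10.0% of all genes, with a median log2 fold change of -0.06. The hormone receptors Fshr and Esr2 did not pass, with means of 18.7 ± 14.6 and 33.1 ± 8.14 CPM for Fshr and 93 ± 55.9 and 131 ± 30 for Esr2 (adjusted p 0.199 and 0.325). Without C57BL/6J replicate 2, in which both were high, 4 markers passed as higher in NZO/HlLtJ, Fshr, Esr2 and the gap junction gene Gja1 among them (adjusted p 0.00274, 0.00712 and 0.0133) and Bex4 (adjusted p 0.0475). Of 12 theca genes 1 rose and 2 fell, beside 4.46% and 5.54% of all genes, and Cyp11a1, given above, was 1 of the 2. Insl3, the peptide hormone of theca cells, was at 0.347, 1.55 and 0.312 CPM in C57BL/6J and 4.73, 3.34, 2.15 and 2.83 in NZO/HlLtJ (adjusted p 0.00604, and 0.0504 without C57BL/6J replicate 1). Its log2 fold change of 2.13 became 3.29 without C57BL/6J replicate 2. The retinaldehyde dehydrogenase Aldh1a1 was at 1154, 3858 and 1623 and 1232, 872, 997 and 938 CPM and rested on C57BL/6J replicate 2, with log2 fold changes of -1.13 in all libraries and -0.46 without it (adjusted p 0.0389 and 0.348). It also missed the threshold without any 1 NZO/HlLtJ library (0.0526 to 0.0994).

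Of 12 luteal cell genes 1, Cyp11a1, passed, beside 10.0% of all genes, and the list's median log2 fold change was -0.89. The median was -1.31 to -0.26 over the settings tried, and 2 members passed without C57BL/6J replicate 2. Scarb1, the lipoprotein receptor that supplies cholesterol, was at 881, 600.4 and 565 CPM in C57BL/6J and 469, 421, 390.3 and 330.1 in NZO/HlLtJ, without overlap (adjusted p 0.0612). Star, which carries cholesterol into mitochondria, was at 1052, 112 and 1230.0 and 199.9, 277, 561 and 150.3 CPM, and C57BL/6J replicate 2 was below every NZO/HlLtJ library (adjusted p 0.251). Of 23 genes of steroid synthesis 1, again Cyp11a1, fell, near the share of all genes (5.54%), and 0 rose, beside 4.46%.

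The mitochondrial genome encodes subunits of the respiratory chain and of ATP synthase. Of 13 mitochondrially encoded subunits 6 fell and 0 rose, beside 5.54% and 4.46% of all genes. All 13 log2 fold changes were negative, while 10410 of 20189 genes tested had a positive one. The list's median was -0.38. The complex I subunits mt-Nd3 and mt-Nd2 were at 170.4, 181 and 177 and 2347, 2041 and 2577 CPM in C57BL/6J, and at 89.5, 118, 109 and 91 and 1681, 1381, 1665 and 1386 CPM in NZO/HlLtJ (adjusted p 0.00127 and 0.00139). mt-Nd1, mt-Nd4 and mt-Nd5 had log2 fold changes of -0.51, -0.41 and -0.40 (adjusted p 0.00507, 0.0326 and 0.0474). mt-Nd4 did not pass without C57BL/6J replicates 1 or 3 or NZO/HlLtJ replicates 2 or 4 (0.0851 to 0.155), nor mt-Nd5 without any library but C57BL/6J replicate 2 (0.0672 to 0.188). The 6 subunits were 3 without C57BL/6J replicates 1 or 3 or NZO/HlLtJ replicates 2 or 4. Of 30 nuclear genes of the respiratory chain 2 fell, near the share of all genes (5.54%), and 0 rose, beside 4.46%. Their median log2 fold change was -0.13.

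Among 22 glycolysis genes 5 fell and 0 rose, beside 5.54% and 4.46% of all genes, with a median log2 fold change of -0.30. Pgk1, phosphoglycerate kinase, was at 236, 203 and 242 CPM in C57BL/6J and 78, 74.7, 156 and 91.5 in NZO/HlLtJ (2.27-fold lower, adjusted p 0.00225). Pkm, pyruvate kinase, and Pdk1, which restrains pyruvate dehydrogenase, fell 1.65-fold and 1.49-fold (adjusted p 0.00297 and 0.00248). NZO/HlLtJ replicate 3 was the highest of its group for Pgk1 and Pkm, and without it 10 members fell. Phosphoglycerate mutase Pgam1 and hexokinase Hk1 had log2 fold changes of -0.48 and -0.37 (adjusted p 0.00863 and 0.0408). Hk1 did not pass without C57BL/6J replicates 1 or 3 or NZO/HlLtJ replicates 1, 2 or 4 (0.089 to 0.349).

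In redox defence 2 of 43 genes rose and 5 fell, near the 4.46% and somewhat above the 5.54% of all genes tested, with a median log2 fold change of -0.17. Gpx3, given above, fell most. The peroxiredoxin Prdx1 was at 565 ± 25 and 405 ± 38.1 CPM and Gpx8, a peroxidase of the endoplasmic reticulum, at 50.8 ± 5.66 and 39.3 ± 3.38 (adjusted p 0.00101 and 0.00467). Gstm2, a glutathione transferase, was at 189, 657 and 232 and 174, 99.9, 115 and 126 CPM (adjusted p 0.0182), and without the high C57BL/6J replicate 2 its log2 fold change went from -1.48 to -0.71 (adjusted p 0.188, and 0.0565 without NZO/HlLtJ replicate 2). Gclc, the catalytic subunit that starts glutathione synthesis, was at 86.4 ± 44.4 and 141 ± 16.9 CPM (adjusted p 0.0477, just past the threshold), and it and Nnt were the 2 that rose. Nnt, the transhydrogenase that makes mitochondrial NADPH and is mutated in C57BL/6J, was at 50, 71 and 45.4 CPM in C57BL/6J and 101, 96.4, 78.7 and 97.2 in NZO/HlLtJ, 1.68-fold higher (adjusted p 0.00127).

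Insulin and the insulin-like growth factors (IGF) act through receptors that share a kinase cascade. Of 33 genes tested 4 rose, beside 4.46% of all genes, and 2 fell, near the share of all genes (5.54%). The list's median log2 fold change was 0.08. Igf2, a fetal growth factor expressed from the paternal allele (GRCm38, chr7:142650766-142666816, - strand), was at 12, 14.1 and 13 CPM in C57BL/6J and 30.1, 28.6, 25.6 and 32.9 in NZO/HlLtJ, 2.25-fold higher (log2 fold change 1.17, SE 0.172, adjusted p 0.000107). Igf1 had a log2 fold change of 0.56 (adjusted p 0.0448), just past the threshold. The insulin receptor Insr and the IGF receptor Igf1r had log2 fold changes of 0.19 and 0.17 and did not pass (adjusted p 0.184 and 0.36). A pair of regulators of glucose transporter traffic moved apart, Tbc1d1 at 52 ± 4.27 and 39.4 ± 2.86 CPM and Tbc1d4 at 59.1 ± 10.6 and 80.9 ± 13.8 CPM (adjusted p 0.0102 and 0.0275). Tbc1d1 missed the threshold without C57BL/6J replicate 1 (0.0935) and Tbc1d4 without C57BL/6J replicates 2 or 3 or NZO/HlLtJ replicates 1 or 4 (0.0545 to 0.11). Stc2, which inhibits the protease PAPP-A that frees IGF, fell 2.09-fold (adjusted p 0.0305, and 0.0602 to 0.157 without any 1 library except C57BL/6J replicate 2 or NZO/HlLtJ replicate 3). The 6 members were 3 without C57BL/6J replicate 1 or NZO/HlLtJ replicates 1 or 4.

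Leptin signals fat stores, and NZO mice are known to resist it. Lepr, the leptin receptor (GRCm38, chr4:101717404-101815352, + strand), was at 36.6, 25.7 and 43.1 CPM in C57BL/6J and 68, 80, 83 and 87.9 in NZO/HlLtJ, 2.27-fold higher and without overlap (log2 fold change 1.18, SE 0.2, adjusted p 0.000465). Leprot, a gene that lies upstream of Lepr on the same strand, was at 95.6 ± 10.5 and 79.7 ± 8.9 CPM (adjusted p 0.0962). Socs3, the feedback inhibitor of the receptor, was at 14.6, 14.4 and 11.6 and 18.5, 17.9, 19.4 and 28.8 CPM (adjusted p 0.0307). It missed the threshold without C57BL/6J replicates 1 or 3 or NZO/HlLtJ replicate 4 (0.0664, 0.143 and 0.123). Its log2 fold change was 0.65 on 10% fat and -0.47 on 44% fat, where it did not pass (adjusted p 0.08). Lepr and Socs3 were the 2 of 21 leptin, adipokine and STAT genes that rose on 10% fat. None fell, and over all genes 4.46% rose and 5.54% fell. The list had 3 higher and 2 lower without C57BL/6J replicate 2 or NZO/HlLtJ replicate 3, and without C57BL/6J replicates 1 or 3 or NZO/HlLtJ replicate 4 it had 1 higher. Jak2, the kinase of the receptor, was at 67.1 ± 6.01 and 86.6 ± 7.64 CPM (adjusted p 0.0863), and Rbp4, a retinol carrier secreted by fat and liver, at 1.06 ± 0.717 and 5.94 ± 2.98 (adjusted p 0.0592).

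Of 10 candidate genes proposed for the obesity and diabetes of NZO mice 3 rose and 4 fell, beside 4.46% and 5.54% of all genes. Those that rose were Ifi202b and Lepr, given above, and Nmur2, a neuromedin U receptor, which was at 0.298, 0.368 and 0.0624 and 1.47, 1.63, 0.478 and 1.2 CPM (adjusted p 0.012, and 0.0648 without C57BL/6J replicate 3). Those that fell were Gm4951, F830016B08Rik and Tbc1d1, given above, and Pctp, a phosphatidylcholine transfer protein, at 8.99 ± 0.601 and 6.16 ± 0.983 CPM (adjusted p 0.0134, and 0.0504 without C57BL/6J replicate 1). Zfp69, a zinc-finger gene disrupted in some strains, was at 2.7 ± 0.682 and 3.2 ± 0.393 CPM, Dpp4, the incretin-degrading protease, at 6.04 ± 2.21 and 5.27 ± 1.58, and Igfbp2 at 59.8 ± 13.9 and 42.2 ± 20.4, and these 3 did not pass (adjusted p 0.58, 0.705 and 0.413). The count of 7 was 4 without C57BL/6J replicate 1, with 1 lower.

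Beside 4.46% and 5.54% of all genes, 7 of 18 genes with known alleles among laboratory strains rose and 5 fell, and the list was chosen for such alleles. Beside Ifi202b, Gbp2b, Mx1, Mx2, Nnt, Nlrp1b and H2-Ea-ps, given above, they included 5 other genes. Alad, an enzyme of heme synthesis, was at 24.9, 30.1 and 26.6 and 64.5, 64.3, 69.6 and 61.9 CPM (2.39-fold, adjusted p 1.84e-06). Wdfy1, an endosomal adaptor, was at 29.9, 24.2 and 26.3 and 67, 64.8, 59.8 and 64.5 CPM (2.39-fold, adjusted p 1.2e-07). Entpd4, a nucleotide phosphatase, fell 2.22-fold, from 120.3 ± 25.6 to 54.2 ± 10.6 CPM (adjusted p 4.1e-06). For Alad, Wdfy1 and Entpd4 the strains were far apart relative to their replicates. Rnaset2b and Pisd-ps1 fell to 119 ± 8.42 and 22.6 ± 3.22 CPM from 179.5 ± 7.14 and 30.6 ± 0.941 (adjusted p 3.77e-05 and 0.0102). Glo1, Apobec3, Fbxw15, Zfp69, Hbb-bs and Hbb-bt did not pass (adjusted p 0.634, 0.342, 0.391, 0.58, 0.931 and 0.93).

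At the extreme, 7 genes were at 1 CPM or more in every C57BL/6J library and under 0.05 CPM in every NZO/HlLtJ library, and 5 the other way round. The 7 were Obox2, Apol7e, Oog1, Lefty1 and 3 pseudogenes. Oog1, an oocyte gene, and Lefty1, an inhibitor of Nodal signals, had 0 counts in NZO/HlLtJ and were at least 272-fold and 91.5-fold lower. The 5 included H2-Ea-ps and the histone gene Hist1h2ao, which is at least 106-fold higher and has many near-identical copies. Every gene in the table is above 0 in at least 12 libraries, and NZO/HlLtJ has 8 libraries in all and C57BL/6J 7. A gene above 0 in only 1 of these strains and in no CAST/EiJ library could therefore not be listed.

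Called genes were unevenly spread over the genome. In 465 windows of 5 Mb with at least 10 genes tested, the median share called was 8.59%, 40 windows held none and 11 held 30% or more. Chromosome 1 from 170 to 175 Mb had 36 of 96 genes called (37.5%), 8 higher and 28 lower. This stretch holds the Ifi200 family, Fc receptors for antibodies and Slam family receptors of lymphocytes. Fcgr4 and Fcer1g fell with log2 fold changes of -2.11 and -1.33, and Slamf7 and Cd48 with -2.47 and -1.36 (adjusted p 0.00187, 0.000259, 0.000198 and 0.0016). These genes of immune cells were picked for their place in the window. The first 5 Mb of chromosome 14 had 9 of 13 called (69.2%), 8 of them higher and nearly all predicted genes with near-identical copies. Chromosome 4 from 145 to 150 Mb had 26 of 82 (31.7%) and chromosome 13 from 65 to 70 Mb 17 of 56 (30.4%), and both hold clusters of zinc-finger genes.

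The strain difference was measured again in libraries that share no sample, those on 44% fat. There 2534 genes passed (12.6%), 1212 higher in NZO/HlLtJ (6.00%) and 1322 lower (6.55%). Both diets called 1351 genes in the same direction, which are 66.9% of the genes called on 10% fat and 53.3% of those on 44% fat. Of the 2019 genes called on 10% fat, 1993 (98.7%) had the same sign on 44% fat, against 74.0% of all genes. The log2 fold changes on 10% and 44% fat were -2.79 and -2.70 for Gpx3, -1.82 and -1.93 for Cyp11a1, 3.96 and 3.91 for Slit2, 1.17 and 1.37 for Igf2 and 1.18 and 1.28 for Lepr. Each of these 5 also passed on 44% fat (adjusted p 1.76e-06, 5.65e-05, 1.5e-05, 4.02e-06 and 6.13e-05). In CAST/EiJ on 10% fat their means were 76.1, 1509, 10.1, 13.9 and 104 CPM. These means were nearer to NZO/HlLtJ for Gpx3, Cyp11a1 and Lepr and nearer to C57BL/6J for Slit2 and Igf2. Differences from CAST/EiJ were not tested.

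Some genes called on 10% fat were not called on 44% fat. Ccl11 had log2 fold changes of 5.64 on 10% and 0.97 on 44% fat (adjusted p 0.000316 and 0.383), Naip1 -4.01 and -1.41 (0.000168 and 0.107) and Il18 -0.88 and -0.01 (0.0155 and 0.99). Of the lists, macrophage markers had 5 lower on 44% fat, smooth muscle 3, surface epithelium and mesothelium 4, oocyte markers 2 higher, luteal genes 4 lower and mitochondrially encoded subunits 2 lower. Over all genes 6.00% were higher and 6.55% lower on that diet. Whether the difference itself differed between diets was tested with the strain-by-diet term, and 0 genes (0.00%) passed by edgeR's quasi-likelihood test, while DESeq2 called 5. At an unadjusted p under 0.05 edgeR had 791. One gene was called in opposite directions: Ccnyl1, a cyclin Y-like gene, had log2 fold changes of 0.32 on 10% and -0.25 on 44% fat (adjusted p 0.0129 and 0.0317). Its call on 10% fat was lost without C57BL/6J replicate 3 (0.0527) or NZO/HlLtJ replicate 2 (0.0531). It also had the smallest p of the strain-by-diet term, with an adjusted p of 0.844, followed by Socs3, Elfn2, Tdg-ps and Scn1a, each with an adjusted p of 1.

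**Figure D5:**
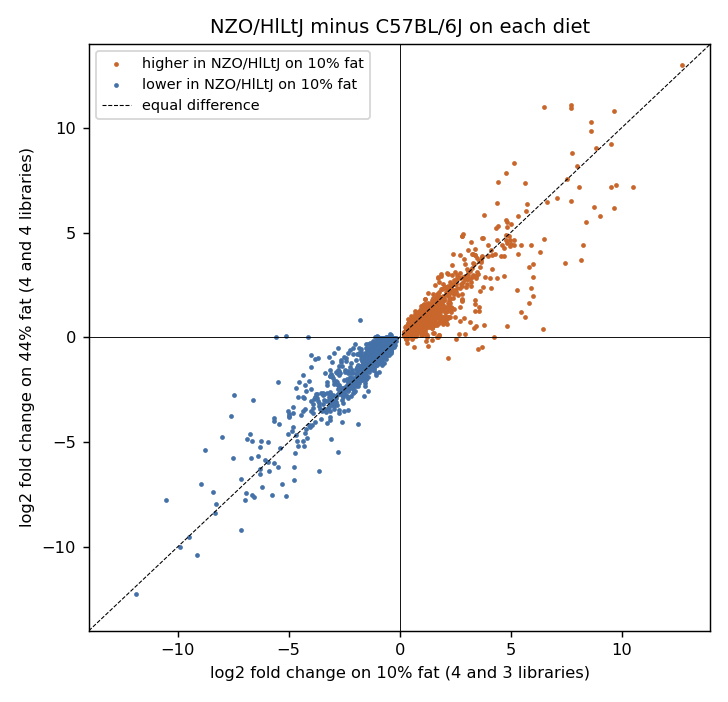
Log2 fold change (NZO/HlLtJ minus C57BL/6J) on 44% fat (vertical axis) against that on 10% fat (horizontal axis) for the 2019 genes called on 10% fat, with the line of equal differences dashed. Of these genes 1993 have the same sign on both diets; fitted values of genes at or near 0 in 1 strain scatter most.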

How the data were processed

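RNA sequencing libraries were made from polyA RNA of ovary, as read pairs of 100 bp with a target of 30 M pairs, per the labels. The authors deposited expected counts per gene, of which 27.4% are not whole numbers, and a second table of variance-stabilised log2 values. The submitters' processing notes name GRCm38 and DESeq2; aligner, counting tool and strand setting are not given in the sources used here. Of 24716 genes listed, each above 0 in at least 12 libraries, 24557 matched GENCODE M21.

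Expected counts were rounded, and filterByExpr by group (minimum count 10, minimum total 15) left 20189 genes (81.7%). Libraries were scaled by trimmed means of M values. One robust quasi-likelihood fit in edgeR, with a mean for each of 6 groups, took all 23 libraries, so the groups share an estimate of the spread (common coefficient of variation 0.268). NZO/HlLtJ minus C57BL/6J was taken on 10% fat, on 44% fat, and as the difference of both. P-values were adjusted by Benjamini and Hochberg's method across the 20189 genes, and 0.05 was the threshold. CPM use the scaled library sizes, and ± marks the SD over libraries. Fold changes are fitted values, and an SE is the log2 fold change over the root of F. Counting intervals (95%) and the floor of 3 counts cover counting error only. Chi-square per degree of freedom was 15.9 to 168.5 for the 9 pairs of libraries within groups, and none was counted as 1 sample. Replicate numbers follow the order of deposit and pair no samples.

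Genes were named by rule. The first set is up to 12 in each direction by fold change, called, at a mean of 5 CPM or more in the higher group, with libraries that do not overlap, leaving out pseudogenes and predicted genes. The second is up to 8 in each direction at a mean of 50 CPM or more over the 7 libraries. The third is up to 5 members by smallest p of each of 19 lists, and all NZO candidates and known alleles. The last is the 5 smallest p of the strain-by-diet term. One gene named by the rule is not reported here. Other names were chosen after their values were seen. The members and lists were chosen with earlier results of these data known, and which of 43 lists are described was decided after their counts were seen. As alternatives, DESeq2, size factors by relative log expression, a fit without the count filter, a fit of the 7 libraries alone, the series of the library identifier (76 or 82) as a term, limma weighted by library quality, limma on the deposited log2 values, and each of the 7 libraries left out were tried. Upstream sequences are from RefSeq (GRCm38.p6). The work used edgeR 4.0.16, DESeq2 1.42.0 and limma 3.58.1 in R 4.3.3.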

Additional observations from a re-analysis of the deposited data

Results flagged for a closer look

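In 10 of the 137 genes named, 1 NZO/HlLtJ library on 10% fat lay far from the other 3: its gap to the nearest, divided by the range of the 4, was above 0.829, Dixon's 95% value for 4 samples. Chance flags about 1 group in 20. Replicate 3 was the library apart for 7 genes. It was high for Zfp949 (ratio 0.985), with 250 CPM against 161 to 162, for Tagln (0.959), with 175 against 112 to 115, for Smtn (0.901), with 101 against 76.8 to 79.2, for Parm1 (0.865), with 77.8 against 31.3 to 37.5, and for Rbp4 (0.838), with 10.4 against 3.78 to 4.84. It was low for Acvrl1 (0.933), with 60.8 CPM against 80.6 to 82, and for Myh11 (0.876), with 224 against 254 to 258. Replicate 4 was high for Gm4951 (0.985), with 0.105 CPM against 0.0217 to 0.023, for Nlrp1b (0.858), with 1.31 against 0.85 to 0.916, and for Socs3 (0.860), with 28.8 against 17.9 to 19.4. Parm1 and Rbp4 were not called, and the other 8 were.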

How the results depend on the processing

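The count of 2019 genes was 1159 (527 higher, 632 lower, 1029 shared) with only the 7 libraries fitted and 5487 (1971 shared) in limma with library quality weights. DESeq2 gave 2740 (2012 shared), relative log expression scaling 2023, no count filter 1877, the identifier series 1871 and the authors' variance-stabilised values 2152. Without 1 library the count was 1106 to 2994, lowest without C57BL/6J replicate 1 and highest without C57BL/6J replicate 2. On 44% fat the count of 2534 was 3193 in DESeq2 and 1906 with the identifier series. The strain-by-diet count of 0 was 5 in DESeq2 and 0 with the identifier series. In windows of 10 Mb the highest share called was 48.9%, against 69.2% in 5 Mb, and with an upper limit of 0.1 CPM the 12 genes at 1 CPM or more in 1 of the 2 strains and under the limit in the other were 25. Of 109 named genes called, 68 passed under all 14 settings, Scn1a passed in the 13 that tested it, 40 were lost under at least 1 and 0 reversed; 26 were lost with only the 7 libraries and 28 without C57BL/6J replicate 1. Both strains have libraries in identifier series 76 and 82, which no label calls a batch, and 2014 of the 2019 genes (99.8%) had the same sign within each, against 63.3% of all genes; they were called from these libraries, so this is a description. No paired analysis was possible because the labels give no replicate numbers and those used here follow deposit order. List medians ranged over the settings from 0.44 to 1.06 for oocytes, -0.74 to -0.24 for surface epithelium and mesothelium, -0.33 to -0.01 for GTPases and -0.27 to 0.48 for granulosa cells, whose sign turned. With 3 and 4 libraries, differences between single libraries decide many calls near the threshold.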

Other observations

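Complement and chemokine genes were not among the lists described, and are given here as values, chosen after they were seen. Of 22 complement genes tested 3 rose and 7 fell in NZO/HlLtJ, beside 4.46% and 5.54% of all genes. The macrophage genes C1qa, C1qb and C1qc are 3 of the 7. C5ar1, the receptor for the fragment C5a, and Cfp, the stabiliser properdin, had log2 fold changes of -1.52 and -0.92 (adjusted p 0.000298 and 0.00531). C1rb, a protease of the C1 complex, had -3.43 (adjusted p 0.000361). The near-identical genes C4a and C4b had log2 fold changes of 1.93 and 1.01 (adjusted p 6.32e-06 and 0.0469), and summed they were at 28.4 ± 10.6 CPM in C57BL/6J (SD, n = 3) and 58.8 ± 20.7 in NZO/HlLtJ (n = 4). Without 1 library the count of 10 was 7 to 9, and the 3 that rose were 1 without C57BL/6J replicate 2 or NZO/HlLtJ replicate 3.

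Beside 4.46% and 5.54% of all genes, 3 of 32 chemokine and cytokine genes rose and 0 fell. They were Ccl11, the monocyte attractant Ccl12 at 0.215 ± 0.128 and 1.66 ± 1.12 CPM (adjusted p 0.0127) and Ccl25 at 10.3 ± 1.63 and 16.3 ± 1.89 CPM (adjusted p 0.027). Without C57BL/6J replicate 2 it was 5 higher and 1 lower, without NZO/HlLtJ replicate 3 it was 4 higher and 2 lower, and the count was 2 without C57BL/6J replicate 1 or NZO/HlLtJ replicates 1 or 4. Of 25 proliferation genes 0 passed and of 18 T and natural killer cell markers 0 passed, beside 10.0% of all genes. The lists' median log2 fold changes were -0.05 and 0.17. The unfolded protein response list had 1 of 25 lower on 10% fat and 14 lower on 44% fat, beside 5.54% and 6.55% of all genes. It had 0 higher on both, while 0 genes passed the strain-by-diet term.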
